A study of Mus musculus with 12 samples.

Results

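Regulatory T cells are CD4+ T cells that restrain immune responses, and the transcription factor Foxp3 sets their identity. They gather in many tumors, where they carry high levels of inhibitory and cytokine receptors and can limit the CD8+ T cell response. The 9 genes described here are known in such cells: the transcription factors Foxp3, Ikzf2 (Helios), Ikzf4 (Eos) and Gata3, the receptors Izumo1r (folate receptor 4), Ccr8 and Il1rl1 (ST2, the IL-33 receptor), the enkephalin precursor Penk, and the hair keratin gene Krt83. They were picked from the 31053 genes measured, with earlier results of these data in view, so their levels are a description and no test was run on them.

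The scRNA-Seq libraries were made from CD45+ cells, pulled out with microbeads, of tumors of the mouse colon carcinoma line MC38, grown under the skin of C57BL/6 mice and taken on day 17. Mice received vehicle or the EZH2 inhibitor PF-06821497 (EZH2i) at 100 mg/kg daily from day 1 (16 days) or day 10 (7 days), 3 mice in each of the 4 groups. EZH2 is the methyltransferase that places the H3K27me3 mark. The deposited matrix holds 12 libraries numbered 1 to 12, and the labels do not tie these numbers to mice, so EZH2i was not compared with vehicle and each library is given by its number.

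The members were counted in classes set by transcripts. Foxp3-positive T cells had a Foxp3 UMI (unique molecular identifier, 1 per captured transcript), a Cd3 UMI and none of Cd8a, Adgre1 or Csf1r. Foxp3-negative CD4 T cells met the same gate with a Cd4 UMI and no Foxp3 UMI. CD8 T cells had Cd8a and Cd3 without Cd4, NK cells had Ncr1 or Klrb1c without Cd3, and myeloid cells had at least 2 UMIs of Adgre1 and Csf1r without Cd3. Of 128912 cells kept from 140639 barcodes, 39 were Foxp3-positive T cells, 811 Foxp3-negative CD4 T cells, 2936 CD8 T cells, 468 NK cells and 76471 myeloid cells.

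Depth differed between libraries. Total UMIs ran from 21649947 in library 10 to 158760328 in library 8, and the median per kept cell from 2291 in library 6 to 15081 in library 12. The median was 4617 UMIs in Foxp3-positive T cells, 3404 in Foxp3-negative CD4 T cells, 3354 in CD8 T cells, 2466 in NK cells and 6742 in myeloid cells. Of the kept cells, 4140 (3.21%) shared a barcode sequence with another library, among them 1 of the 39 Foxp3-positive T cells. Libraries 1 to 6 held Y-linked transcripts at 128 to 209 CPM (UMIs of a gene per 1000000 UMIs), and libraries 7 to 12 held 0 such UMIs. The study's methods describe the mice as female. How this division of the libraries lies to the 4 groups was not analysed here, so values given for libraries 1 to 6 and 7 to 12 apart may also differ by group.

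Foxp3 transcripts were scarce. In all kept cells 83 Foxp3 UMIs were found in 73 cells, and 65 of these cells had a single one. Foxp3-positive T cells held 47 of the UMIs, with 33 cells at 1 UMI, 5 at 2 and 1 at 4. The other Foxp3 UMIs lay in 18 cells with both Cd3 and macrophage transcripts, 3 cells with Cd8a and 13 cells without Cd3, of which 8 were myeloid. A cell without a Foxp3 UMI is thus not shown to lack Foxp3. After each cell was thinned to 1000 UMIs, 11 of 37 Foxp3-positive T cells still had a Foxp3 UMI, which is 29.7%. These cells were chosen by a Foxp3 UMI, so this share follows from the choice and the thinning and is no measure of Foxp3 capture.

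The Foxp3-positive T cells came from 10 of the 12 libraries. Library 8 gave 15 cells, library 1 gave 6, the others that had any gave 1 to 3, and libraries 10 and 11 gave 0. They made up 39 of 850 CD4 T cells, or 4.59% (exact 95% interval 3.28 to 6.22%). Among libraries with at least 20 CD4 T cells, the shares ran from 0% in library 11, with 25 CD4 T cells, to 8.70% in library 1. The lowest share above 0 there was 2.56% in library 7. Library 8 stood at 6.36% (3.60 to 10.3%), which overlaps the intervals of the other libraries. Only 17 of the 39 cells had a Cd4 UMI, and counting these alone the share was 2.05%. Intervals on counts and shares in this text cover counting error only, not the spread between mice. Those on UMI levels and ratios treat each UMI as a separate draw, so they also leave out the spread between cells.

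The gate was checked against markers. All 5 T cell markers were found in Foxp3-positive T cells, with Cd3d in 37 of 39 cells and the receptor constant gene Trac in 35. None of 5 NK markers and none of 4 basophil and mast cell markers was found. Of 7 myeloid markers 5 were present, led by Lyz2 in 31 cells, while Adgre1 and Csf1r were at 0 by the gate. Their summed level was 1823 CPM in Foxp3-positive T cells (113 to 6022 over 10 libraries) against 1243 CPM in Foxp3-negative CD4 T cells (716 to 4265 over 9). The medians over these libraries went the other way, at 836 against 1147 CPM. Of 4 neutrophil markers, 3 were present at 606 CPM against 392.5, with Retnlg at 0. These rested on few Foxp3-positive T cells, S100a8 in 1 and S100a9 and Csf3r in 2 each. The medians over libraries were 0 against 13.6 CPM. None of the 39 Foxp3-positive T cells had 2% or more of its UMIs in 7 macrophage and neutrophil genes.

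The promoters of 4 members are shown from RefSeq, since Gata3, one of the 9, encodes a factor that reads GATA letters. Ikzf2, Ikzf4, Penk and Krt83 had no entry. Each is the 250 bases before a start site, 5′ to 3′ on the gene's strand (build GRCm38). Capitals mark the letters AGATAA or TGATAA on either strand, which stand in 16.5% of 32536 promoter windows of this length, and in Foxp3 also TTCNNNGAA, read by STAT5, which stands in 7.04%. The forkhead letters TGTTTAC or TATTTAC (5.75% of windows) were in none of these 4.
Foxp3, chrX:7580233-7580482, plus strand: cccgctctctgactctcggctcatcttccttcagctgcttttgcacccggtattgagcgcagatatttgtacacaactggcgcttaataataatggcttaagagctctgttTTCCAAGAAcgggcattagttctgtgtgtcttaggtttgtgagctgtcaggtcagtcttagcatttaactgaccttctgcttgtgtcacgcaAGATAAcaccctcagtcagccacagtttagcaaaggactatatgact
Izumo1r, chr9:14903768-14904017, minus strand: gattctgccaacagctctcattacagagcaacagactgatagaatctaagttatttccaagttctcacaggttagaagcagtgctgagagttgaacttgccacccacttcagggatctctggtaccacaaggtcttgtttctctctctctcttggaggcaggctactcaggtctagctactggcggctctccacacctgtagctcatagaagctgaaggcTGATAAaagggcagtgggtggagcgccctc
Ccr8, chr9:120091883-120092132, plus strand: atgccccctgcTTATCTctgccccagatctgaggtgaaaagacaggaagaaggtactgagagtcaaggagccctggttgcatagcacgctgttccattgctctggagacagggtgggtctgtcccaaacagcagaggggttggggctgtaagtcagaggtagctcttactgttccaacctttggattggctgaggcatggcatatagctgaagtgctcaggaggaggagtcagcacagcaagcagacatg
Il1rl1, chr1:40429320-40429569, plus strand: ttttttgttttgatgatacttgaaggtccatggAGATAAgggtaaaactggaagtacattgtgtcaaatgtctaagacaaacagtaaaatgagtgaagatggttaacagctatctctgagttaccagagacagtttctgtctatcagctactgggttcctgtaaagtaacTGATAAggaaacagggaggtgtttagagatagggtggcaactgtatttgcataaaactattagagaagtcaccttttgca

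The GATA letters began 47 bases before the start site in Foxp3, 30 bases before it in Izumo1r, 239 in Ccr8, and 217 and 80 in Il1rl1. The STAT5 letters in Foxp3 began 139 bases before the start. The windows of the other start sites of Foxp3 and Il1rl1 also had GATA letters, and that of Foxp3 had no STAT5 letters. The other window of Il1rl1 also had forkhead letters 117 bases before the start, and the window of Gata3 had none of these letters. Such matches are letters in a window and no measure of binding.

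Compared to Foxp3-negative CD4 T cells, Foxp3-positive T cells had higher summed levels of Ikzf2, Ikzf4 and Il1rl1. The summed level of Penk was lower, but few Foxp3-negative CD4 T cells held much of it. The intervals on the shares of cells with a Penk UMI overlapped. No library had 20 Foxp3-positive T cells, so UMIs were summed over the 12 libraries before the ratio was taken. Of the 8 members beside Foxp3, 6 were at least 2-fold higher, 1 was at least 2-fold lower and 1 was neither. Of all 9044 genes with a mean of at least 5 CPM, 8.76% were at least 2-fold higher and 9.66% at least 2-fold lower, and the median ratio was 1.03.

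The count rested on library 8. Without it, 24 Foxp3-positive T cells were left and 1 member, Il1rl1, was still at least 2-fold higher, as were 18.2% of all genes. In libraries 1 to 6 alone, with 18 Foxp3-positive T cells, it was again Il1rl1, with a ratio of 3.62, as were 26.1% of all genes. In libraries 7 to 12, with 21 such cells, the count was 6, with 11.4% of all genes. A class without a UMI of a gene was set to a floor of 3 UMIs. With so few Foxp3-positive T cells, a gene without a UMI in them could pass 2-fold through this floor. The shares of all genes in these smaller sets may include such genes, so they are no firm measure for the member count. In the plot of ratios with and without library 8, the ratios of Ikzf2, Ikzf4, Izumo1r and Krt83 fall from above 2 to between 1.52 and 1.70 once the library is left out.

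**Figure D1:**
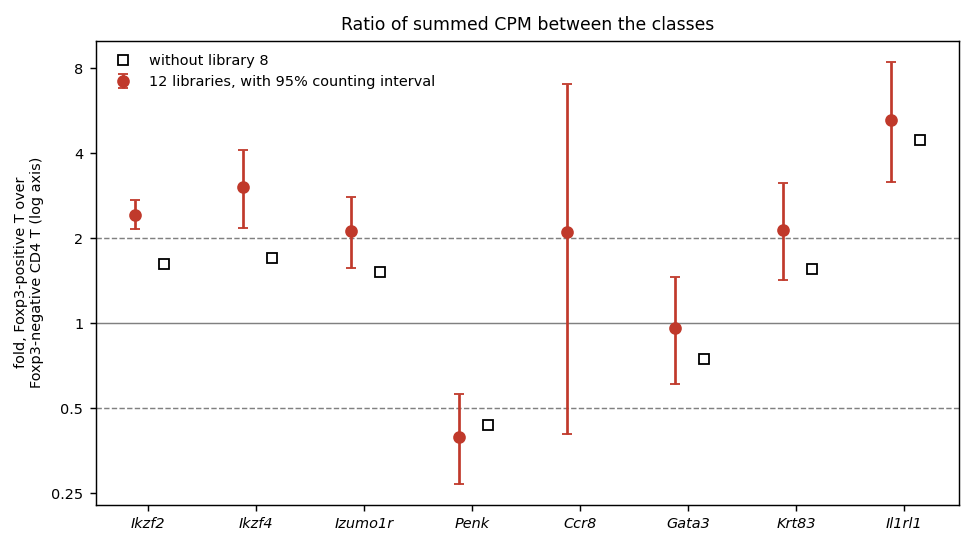
Ratio of summed CPM in Foxp3-positive T cells over Foxp3-negative CD4 T cells (log axis) for 8 genes. Circles are all 12 libraries with a 95% counting interval and squares are 11 libraries without library 8; dashed lines mark 2-fold. Il1rl1 lies above 2 and Penk below 0.5 in both, and Ccr8, with 3 UMIs, has the widest interval and no square, since all 3 were in library 8.

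Among the transcription factors, Ikzf2 encodes Helios, an Ikaros family protein carried by many regulatory T cells. Foxp3-positive T cells held 330 Ikzf2 UMIs in 36 of 39 cells, or 1409 CPM (1261 to 1569). Library 8 held 221 of these UMIs. In Foxp3-negative CD4 T cells the level was 581 CPM over all libraries, and in the 9 libraries with at least 20 such cells it lay between 321 and 751 CPM with a median of 598. The ratio was 2.43 (counting interval 2.15 to 2.73) and 1.63, outside this interval, without library 8. Among the Foxp3-positive T cells, 6 held at least 50% of the Ikzf2 UMIs.

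Ikzf4 encodes Eos, a partner of Foxp3 in gene silencing. It was counted at 209 CPM (155 to 277) in Foxp3-positive T cells, with 34 of its 49 UMIs in library 8 and none in libraries 3 to 7. In Foxp3-negative CD4 T cells it was at 69.1 CPM, and at 48.4 to 128 CPM over the 9 libraries. The ratio was 3.03 (2.18 to 4.12) and 1.70, outside this interval, without library 8. Among the Foxp3-positive T cells, 5 held at least 50% of the Ikzf4 UMIs. Among libraries 1 to 6, Foxp3-positive T cells held Ikzf4 UMIs in libraries 1 and 2 alone, 5 and 3. The levels there were 113 and 141 CPM, against 98.4 and 79.5 CPM in Foxp3-negative CD4 T cells, so the higher summed level came mostly from the later libraries.

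Gata3, the factor of type 2 helper T cells that is also present in regulatory T cells of tissues, had a ratio that lay on either side of 1 depending on the cells counted. It stood at 102 CPM (65.6 to 152) in Foxp3-positive T cells, from 24 UMIs in 12 cells. Foxp3-negative CD4 T cells had 106 CPM, with 30.0 to 192 CPM over the 9 libraries. The ratio was 0.966 with a counting interval of 0.611 to 1.46. It was 0.411 in libraries 1 to 6, 1.45 in libraries 7 to 12 and 2.03 in the 6 cells with at least 2 Foxp3 UMIs. Exons of Gata3 overlap those of the same-strand transcript 9230102O04Rik, and those of Foxp3 overlap Flicr, so reads there can be lost from either count. Flicr had 78 UMIs in kept cells, 2 of them in Foxp3-positive T cells.

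Of the receptors, Il1rl1 had the largest ratio. Its 24 UMIs in 9 Foxp3-positive T cells gave 102 CPM (65.6 to 152), against 19.6 CPM in Foxp3-negative CD4 T cells, where the 9 libraries ran from 0 to 51.6 CPM with a median of 20.4. The ratio was 5.24 (3.15 to 8.43), and 4.44 without library 8. A single cell held 10 of the 24 UMIs, and leaving out cells with more than 2 times the median UMI count of their class and library gave a ratio of 2.51.

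Izumo1r, a folate receptor family protein on regulatory and anergic CD4+ T cells, was at 235 CPM (177 to 306) in Foxp3-positive T cells, from 55 UMIs in 22 cells. Foxp3-negative CD4 T cells had 111 CPM and 58.8 to 172 CPM over the 9 libraries. The ratio of 2.11 (1.57 to 2.81) was 1.52 without library 8 and 1.48 without the cells of high UMI count.

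Ccr8, a chemokine receptor of tumor regulatory T cells, gave too few UMIs to place. Foxp3-positive T cells held 3, all in library 8 and in 2 cells, against 22 in Foxp3-negative CD4 T cells. The ratio of 2.11 has a counting interval of 0.405 to 7.03. Ccr8 had 101 UMIs in all kept cells.

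Penk, which encodes the precursor of the enkephalin opioid peptides, was the member with a lower level. Foxp3-positive T cells held 32 UMIs in 8 cells (137 CPM, 93.4 to 193) against 1248 UMIs in 131 Foxp3-negative CD4 T cells (344 CPM). The ratio was 0.397 (0.271 to 0.564). The UMIs of the latter lay in few cells: 9 cells held at least 50% of them and the highest cell had 257, while the highest Foxp3-positive cell had 12. With at most 10 UMIs counted per cell the ratio was 0.857, and without the cells of high UMI count it was 0.732. Library 12, with 13 Foxp3-negative CD4 T cells, had 4086 CPM of Penk; without this library the ratio was 0.516, and without library 6, which held 12 of the 32 UMIs, it was 0.247. It was 0.947 in libraries 1 to 6 and 0.192 in libraries 7 to 12. The shares of cells with a Penk UMI after thinning were 13.5% and 10.1%, and their intervals overlap.

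Krt83, a type II hair keratin whose role in T cells is unclear, was at 132 CPM (89.9 to 188) in Foxp3-positive T cells and 61.7 CPM in Foxp3-negative CD4 T cells. Library 8 held 23 of its 31 UMIs. The ratio was 2.14 (1.42 to 3.13), 1.56 without library 8, and 1.75 when the libraries of the comparison class were weighted as those of the Foxp3-positive T cells. None of the keratin genes Krt81, Krt86 and Krt80 reached a mean of 5 CPM.

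Shares of cells with a UMI give a view that single high cells do not move. After thinning to 1000 UMIs, which left out 2 Foxp3-positive T cells and 62 Foxp3-negative CD4 T cells, Ikzf2 was found in 64.9% (47.5 to 79.8%) of Foxp3-positive T cells and in 35.9% (32.5 to 39.5%) of Foxp3-negative CD4 T cells. The intervals of these classes overlapped for the other 7 members. This was not the same in the draw of 500 UMIs, which kept 39 and 811 cells: there the Ikzf2 intervals overlapped, with 35.9% (21.2 to 52.8%) against 23.3% (20.4 to 26.4%), and those of Izumo1r did not, with 20.5% (9.30 to 36.5%) against 6.54% (4.93 to 8.46%). Each depth was 1 random draw, and the intervals do not cover the error of that draw. Izumo1r rested on 8 of 39 Foxp3-positive T cells at 500 UMIs and on 6 of 37 at 1000. At 1000 UMIs, Ikzf4 was in 18.9% against 6.94%, Izumo1r in 16.2% against 10.3% and Il1rl1 in 8.11% against 2.27%. In B cells, which should lack these genes and had a median of 1329.5 UMIs before thinning, Ikzf2 was in 1 of 268 cells and the other 7 in 0, which, with 3 cells as the limit for a count of 0, allows a share of cells with a UMI of up to 1.12%. The unthinned shares in Foxp3-positive T cells were 92.3% for Ikzf2, 46.2% for Ikzf4, 56.4% for Izumo1r and 23.1% for Il1rl1.

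**Figure D2:**
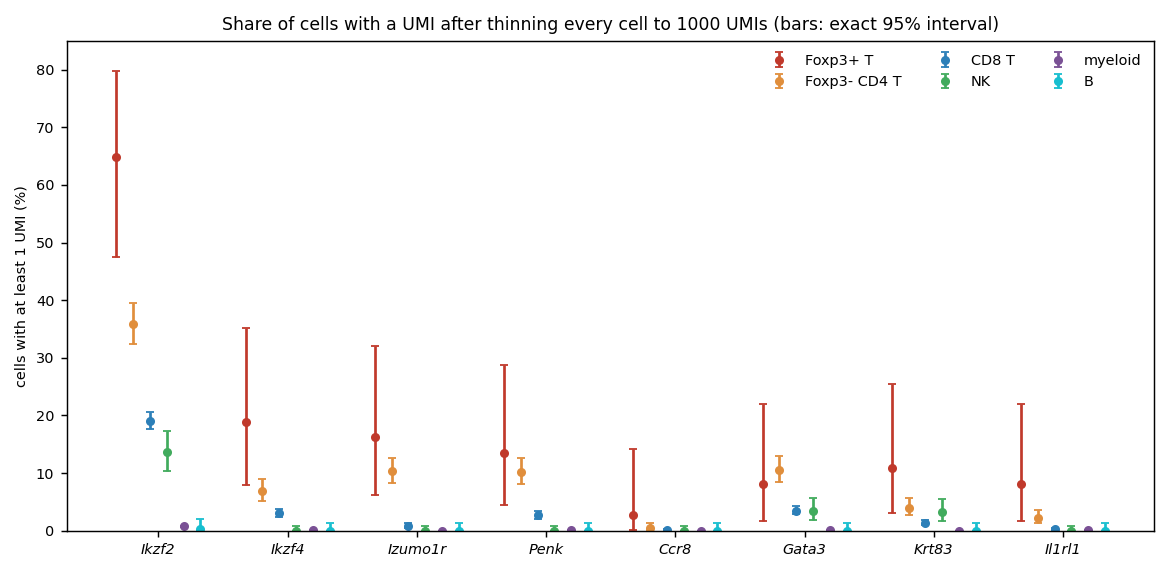
Percent of cells with at least 1 UMI of each gene (vertical axis) in 6 cell classes after every cell was thinned to 1000 UMIs; bars are exact 95% intervals. At this depth the Ikzf2 interval of Foxp3-positive T cells, from 47.5%, clears that of Foxp3-negative CD4 T cells, which it does not in the draw of 500 UMIs.

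Cells with UMIs of several members were counted next. At 1000 UMIs 45.9% (29.5 to 63.1%) of Foxp3-positive T cells had UMIs of at least 2 of the 8 other members, compared to 20.2% (17.3 to 23.2%) of Foxp3-negative CD4 T cells. The share was 3.01% in CD8 T cells, 1.74% in NK cells and 0.0131% in myeloid cells, and 0 of 268 B cells had 2. Without thinning, the shares were 76.9% and 49.1% in the Foxp3-positive and Foxp3-negative cells, and at 500 UMIs they were 23.1% (11.1 to 39.3%) and 11.1% (9.02 to 13.5%), with intervals that overlap.

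Against the other classes all 8 members were at least 2-fold higher in Foxp3-positive T cells: compared to CD8 T cells, where 11.5% of all genes tested were, compared to NK cells (14.7%) and compared to myeloid cells (20.8%). Genes under 5 CPM in the lower class passed the filter through the Foxp3-positive T cells, so nothing is read from the call for Ccr8 and Il1rl1 against CD8 T cells, for Ikzf4, Izumo1r, Penk, Ccr8 and Il1rl1 against NK cells, or for the members beside Ikzf2 against myeloid cells. The ratios to CD8 T cells ran from 2.86 for Penk to 30.8 for Izumo1r. Izumo1r, Ccr8 and Il1rl1 had 0 UMIs in NK cells, so no ratio to NK cells is given for them. Without library 8 the counts were 7 against each of these classes, since Ccr8 no longer reached 5 CPM.

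CD4 T cells without a Foxp3 UMI also had more of most of these transcripts than CD8 T cells. In 9 libraries with at least 20 cells of both classes, with each library weighted equally, the 7 members with a mean of at least 5 CPM were all at least 2-fold higher in Foxp3-negative CD4 T cells than in CD8 T cells, where 5.54% of all genes were. Il1rl1, at 3.43 CPM in CD8 T cells, passed the filter through the CD4 T cells, so its call is no result. Ikzf2, Ikzf4, Izumo1r and Penk were higher in 9 of 9 libraries, as were 4.72% of all genes, and Gata3, Krt83 and Il1rl1 in 8 of 9. Izumo1r was the member whose libraries did not overlap between the classes, which held for 0.631% of genes. Its levels over all libraries with 20 cells were 58.8 to 172 CPM in Foxp3-negative CD4 T cells and 2.98 to 14.9 CPM in CD8 T cells, and the ratio of means was 15.2.

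The remaining ratios of Foxp3-negative CD4 T cells over CD8 T cells were 2.06 for Ikzf2, 2.52 for Ikzf4, 3.04 for Krt83, 3.58 for Gata3, 6.74 for Penk and 6.90 for Il1rl1. Penk ranged over CD8 T cell libraries from 2.30 to 105 CPM with a median of 23.3. Ikzf2 ranged there from 117 to 482 CPM, with a UMI in 1156 of 2936 cells.

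NK cells kept part of the set. Ikzf2 (78.6 to 246 CPM over 6 libraries), Gata3 (23.1 to 50.9 CPM) and Krt83 (20.03 to 78.6 CPM) were found in each of the 6 libraries with at least 20 NK cells. Krt83 was the member that did not differ by 2-fold between Foxp3-negative CD4 T cells and NK cells (51.1 against 48.5 CPM, ratio 1.05, higher in 2 of 6 libraries). The other 6 members tested were at least 2-fold higher in Foxp3-negative CD4 T cells, as were 11.4% of genes, and 5 were higher in 6 of 6 libraries (8.77% of genes) without overlap between the classes (3.02% of genes). No member was at least 2-fold lower, as were 5.79% of genes. Ikzf4, Izumo1r, Penk and Il1rl1 were near 0 in NK cells and passed the filter only through the CD4 T cells, so neither count is read as a result about them. Ikzf2 and Gata3, measured in both classes, did not overlap. Penk had 1 UMI and Ikzf4 had 6 in all 468 NK cells.

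In myeloid cells every member was low: Ikzf2 had a median of 5.08 CPM over the 12 libraries and at most 15.5, and the others had library medians of at most 0.497 CPM. Compared to myeloid cells, Foxp3-negative CD4 T cells were at least 2-fold higher in 7 of 7 members tested, as were 14.6% of genes, and the libraries of 5 did not overlap, as for 9.16% of genes. Beside Ikzf2, these members could pass the filter only through the CD4 T cells, so the count is no result about them. In B cells Ikzf2 had 3 UMIs, Ikzf4 2 and Gata3 1, and the other members had 0.

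**Figure D3:**
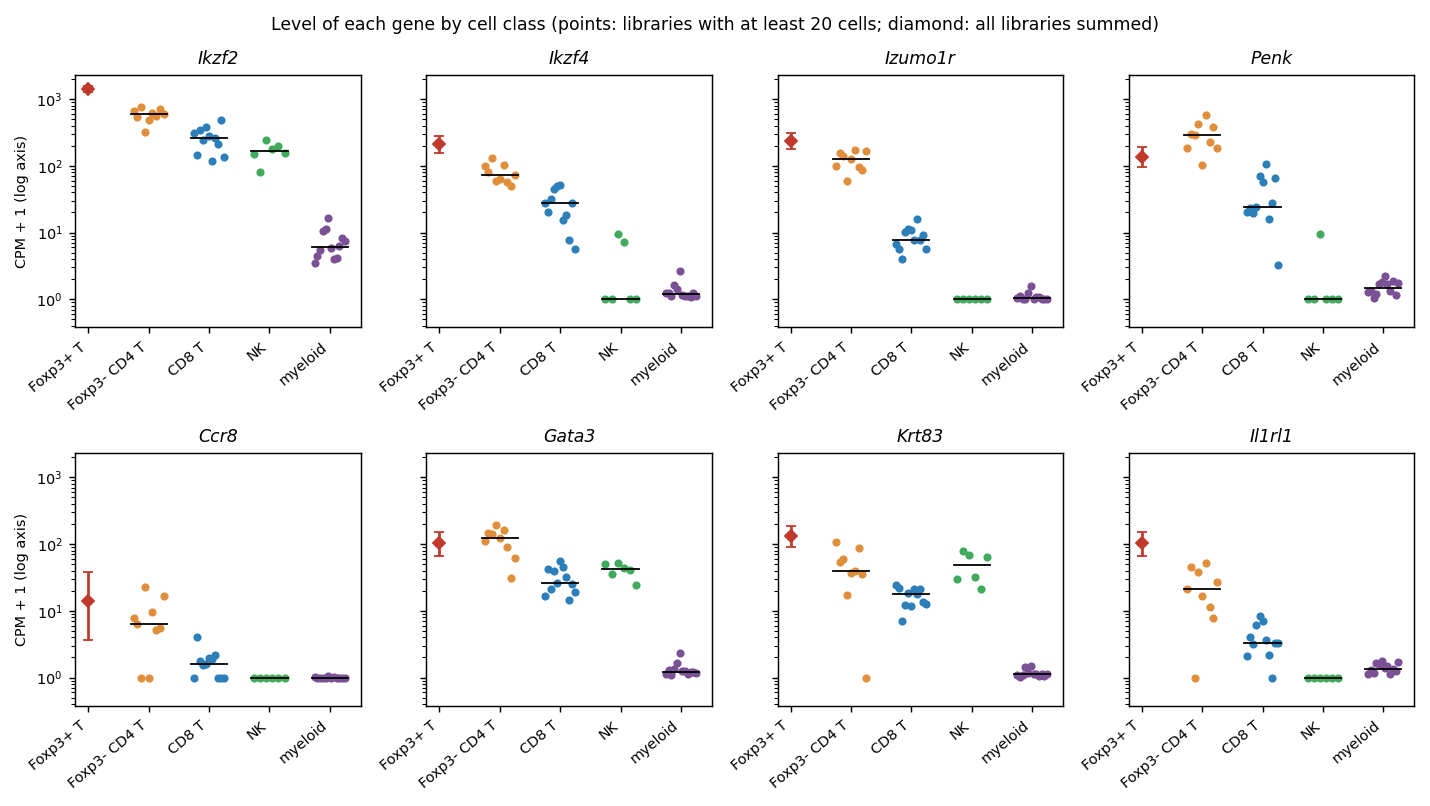
Level of each gene (CPM + 1, log axis) by cell class. Points are libraries with at least 20 cells of the class, lines their medians, and diamonds the Foxp3-positive T cells summed over all libraries with a 95% Poisson interval. Izumo1r shows the gap between CD4 and CD8 T cells without overlap, and the NK libraries of Krt83 overlap those of Foxp3-negative CD4 T cells.

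Il1rl1 was the member with a strong source outside T cells. The 41 cells with basophil or mast cell markers had 121 of its 1114 UMIs, in 31 cells unthinned and 19 of 33 cells thinned (57.6%). None of the 4 basophil and mast cell markers was found in Foxp3-positive or Foxp3-negative CD4 T cells. Hdc, the histamine synthesis gene, was not on the marker list. It had 26 UMIs in 3 Foxp3-positive T cells, 22 of them in 1 cell, against 39 in Foxp3-negative CD4 T cells. The neutrophil marker S100a9 was found in 2 Foxp3-positive T cells, and whether these held Hdc was not counted. The part of either gene in the Il1rl1 level was not tested. Foxp3-positive T cells held 24 of the Il1rl1 UMIs and myeloid cells 246, at 0.395 CPM.

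Counted over all kept cells, Foxp3 had 56.6% of its UMIs in Foxp3-positive T cells, as the class was chosen by it. These cells held 0.835% (Penk) to 3.48% (Izumo1r) of the UMIs of the other members, against 0.0289% of the UMIs of all genes. Foxp3-negative CD4 T cells held 6.37% (Il1rl1) to 32.6% (Penk), against 0.448% of all UMIs. The largest part of each of the 8, from 35.3% for Il1rl1 to 55.7% for Izumo1r, lay in other cells with Cd3, which include T cells without Cd4 or Cd8a UMIs and barcodes with both T cell and macrophage transcripts.

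**Figure D4:**
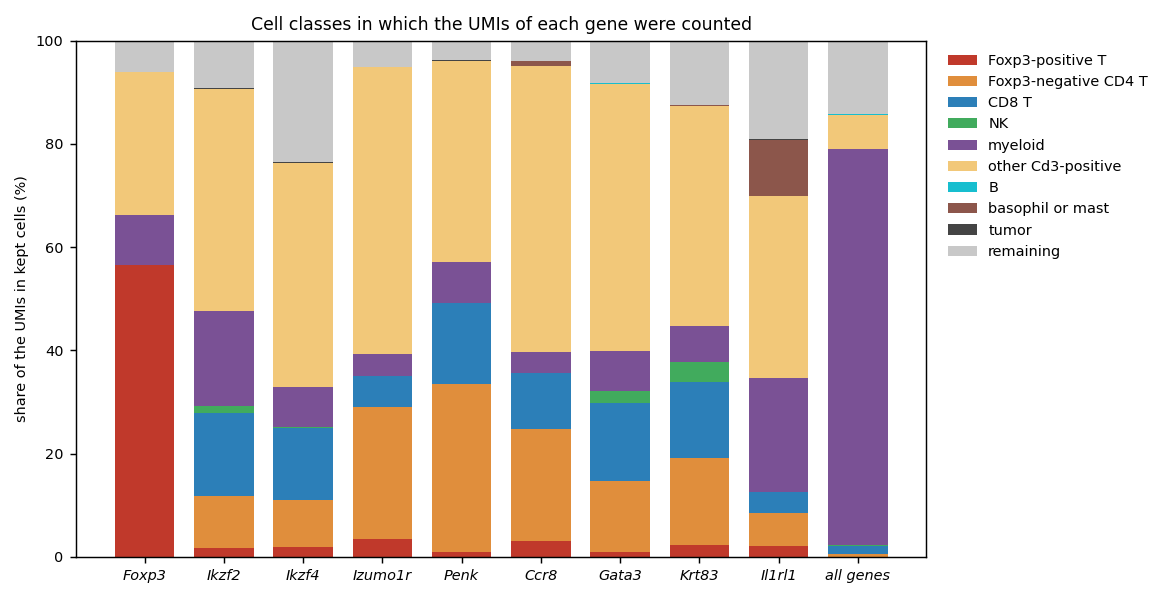
Share of the UMIs of each gene (vertical axis, percent) by cell class, with all genes summed in the last bar. Other Cd3-positive cells hold the largest part of each gene except Foxp3, and myeloid cells, with 76.8% of all UMIs, hold at most 22.1% of any member.

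Since Foxp3 itself was so rarely captured, the CD4 T cells (Foxp3-positive and Foxp3-negative) were also divided by Ikzf2, the most frequent member. This division was chosen after values had been seen. A Foxp3 UMI was found in 36 of 512 cells with an Ikzf2 UMI (7.03%) and in 3 of 338 without (0.888%). The cells with Ikzf2 had more UMIs (median 4042.5 against 2646), and shares of cells were not thinned here. In the 5 libraries with at least 20 cells on both sides, which held 328 cells with and 262 without Ikzf2, 4 of the 8 other members were at least 2-fold higher in cells with Ikzf2, against 6.57% of all genes, and 0 were at least 2-fold lower, against 5.70%. Of the 4, Foxp3, at 4.05 CPM without Ikzf2, passed the filter only through the cells with Ikzf2, so its call is no result. Ikzf4 and Il1rl1 were higher in 5 of 5 libraries, as were 4.54% of genes. Foxp3 was also higher in 5 of 5, which is no result for the same reason.

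Il1rl1 was 4.78-fold, Foxp3 4.05-fold, Ikzf4 3.42-fold and Izumo1r 2.15-fold higher in CD4 T cells with Ikzf2. Ikzf4 was higher in 5 of 5 libraries without overlap (88.9 to 138 CPM against 10.7 to 66.8 CPM), as were 0.598% of all genes. Izumo1r was higher in 4 of 5 libraries, with library 6 at 113 CPM with Ikzf2 and 141 CPM without. The ratio of Foxp3 is a description, since 17 of the 39 Foxp3-positive T cells had a Cd4 UMI and the others entered the CD4 T cells by their Foxp3 UMI. Foxp3 in the cells without Ikzf2 rested on 2 UMIs in these libraries, and in library 2 its levels were 7.58 CPM with Ikzf2 and 7.42 CPM without.

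Gata3 (1.54-fold), Ccr8 (1.52-fold), Krt83 (1.18-fold) and Penk (0.897-fold) did not reach 2-fold. Penk went both ways, from 28.4 CPM without and 314 CPM with Ikzf2 in library 8 to 791 and 434 CPM in library 7. When UMIs were summed over all libraries in place of equal weights, 7 members, Foxp3 among them, were at least 2-fold higher, against 3.71% of all genes. Without the Foxp3-positive T cells, Il1rl1 (4.32-fold), Ikzf4 (3.51-fold) and Izumo1r (2.18-fold) were at least 2-fold higher in cells with Ikzf2 in 5 libraries, 3 of the 7 members left, against 6.68% of all genes.

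**Figure D5:**
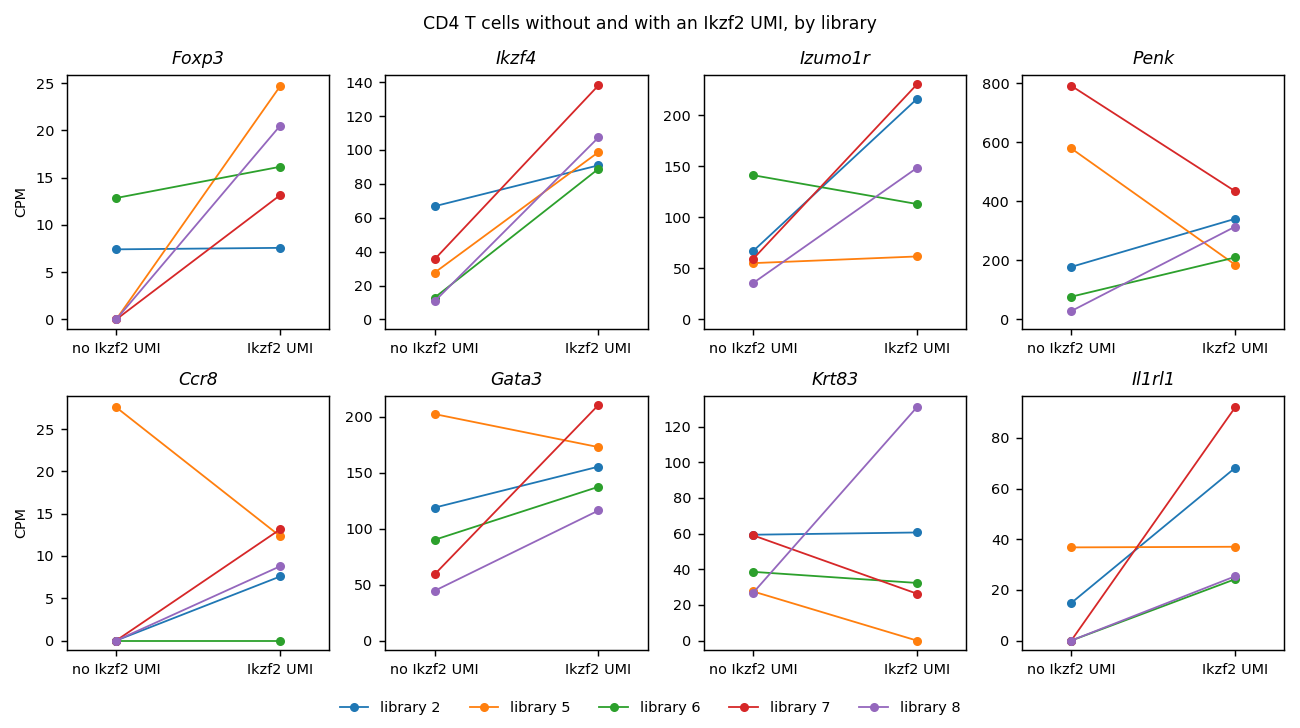
CPM of 8 genes (vertical axes) in CD4 T cells without and with an Ikzf2 UMI; each line is 1 of the 5 libraries with at least 20 cells on both sides. Lines of Ikzf4 rise in all 5 libraries, and those of Penk rise in 3 and fall in 2.

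Divided by Izumo1r in the same way, 22 of 239 cells with an Izumo1r UMI had a Foxp3 UMI (9.21%), and 17 of 611 without (2.78%). The cells with Izumo1r had more UMIs (median 4519 against 3159), and these shares were not thinned either. In 6 libraries, Il1rl1 was 2.55-fold and Foxp3 2.26-fold higher in the cells with Izumo1r, while Ikzf2 (1.55-fold) and Gata3 (1.64-fold) were higher in 6 of 6 libraries, as were 1.52% of all genes. Foxp3 was higher in 5 of 6, with library 7 at 0 CPM with Izumo1r and 14.8 CPM without. Its ratio is again a description, since Foxp3-positive T cells without a Cd4 UMI entered by their Foxp3 UMI. At least 2-fold higher were 4.24% of all genes, and 4.79% were at least 2-fold lower, with no member among them.

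In CD8 T cells, Ikzf2 also went with other members. Among 1123 cells with and 1709 without an Ikzf2 UMI in 9 libraries, Izumo1r was 3.26-fold, Penk 2.77-fold and Ikzf4 2.03-fold higher with Ikzf2, while 0.731% of all genes were at least 2-fold higher. Gata3 (0.939-fold) and Krt83 (1.24-fold) were not, and no member was at least 2-fold lower, as were 1.04% of genes. Higher in 9 of 9 libraries were 2.42% of genes and none of the members beside Ikzf2. Penk and Ikzf4 were higher in 8 of 9 libraries and Izumo1r in 7, and Izumo1r rested on 67 and 26 UMIs. Over all CD8 T cells, 21 of the 198 cells with a Penk UMI held at least 50% of its 601 UMIs. Izumo1r, at 3.72 CPM without Ikzf2, passed the filter through the cells with Ikzf2, so its call is no result.

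Other genes known in regulatory T cells are given from a list of 16 receptors and suppressive molecules, chosen with earlier results known. Of 15 with a mean of at least 5 CPM, 5 were at least 2-fold higher in Foxp3-positive than in Foxp3-negative CD4 T cells and 1 was lower, against 8.76% and 9.66% of all genes. The median ratio was 1.54, against 1.03 over all genes. Library 8 gave 15 of the 39 Foxp3-positive T cells, and the member count rested on it. Whether the ratios of listed genes in Foxp3-positive T cells, here and below, hold without this library was not tested. Ctla4, an inhibitory receptor, was at 1515 against 483 CPM and found in 36 of 39 cells, and Il2ra, the high-affinity IL-2 receptor chain, was at 674 against 215 CPM. Lrrc32 (GARP) and Itgb8, which act in the release of active TGF-beta, were 4.02-fold and 3.35-fold higher, and Ebi3 2.73-fold. Itgb8 rested on 24 UMIs in 11 cells, 9 of them in 1 cell, and Il2ra on 158 UMIs in 31 cells, 49 of them in 1 cell. Il10, an anti-inflammatory cytokine, had 2 UMIs (8.54 CPM) against 153 (42.1 CPM), a ratio of 0.203 (counting interval 0.0243 to 0.744), and was found in 2 of 39 against 59 of 811 cells.

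In the division by Ikzf2, 9 of these 15 genes were at least 2-fold higher and 0 lower, against 6.57% and 5.70% of all genes, with a median ratio of 2.25. Itgb8 was 10.1-fold, Lrrc32 5.16-fold, Areg (amphiregulin, a tissue repair factor) 4.35-fold and Il2ra 4.23-fold higher. Itgb8, Areg and Il2ra did not overlap between the sides in the 5 libraries, as for 0.598% of all genes. Here Il10 was 3.36-fold higher with Ikzf2, from 98 and 16 UMIs.

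Of 8 genes of conventional CD4 T cells, 0 were at least 2-fold higher in Foxp3-positive T cells and 3 were lower, against 8.76% and 9.66% of all genes, with a median ratio of 0.654. Ifng, the interferon-gamma gene, had a ratio of 0.388 (counting interval 0.199 to 0.685). The factors Lef1 and Tcf7 had 3 UMIs each in Foxp3-positive T cells, with ratios of 0.363 (0.0739 to 1.09) and 0.419 (0.0851 to 1.26). In the division by Ikzf2, 3 of 8 were lower, against 5.70% of all genes, namely Tcf7 (0.281-fold), Lef1 (0.369-fold) and the CD40 ligand gene Cd40lg (0.490-fold), and Tcf7 and Lef1 were lower in 5 of 5 libraries. Among 14 other transcription factors, 13 reached 5 CPM, 0 were at least 2-fold higher in Foxp3-positive T cells and 5 were lower, again against 8.76% and 9.66% of all genes, among them Ikzf1 (ratio 0.466) and Satb1 (0.488), and the median ratio was 0.703. Of the 5, Bach2 and Bcl6 had 1 UMI each in Foxp3-positive T cells (4.27 CPM). Both passed the filter only through the Foxp3-negative cells, so their calls are no result.

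A list of 9 ligands and partner receptors held partners of members, and also Ccr4, which is not a member, with its ligands Ccl17 and Ccl22. Of the 9, 6 reached 5 CPM. Of these, 4 were at least 2-fold lower in Foxp3-positive T cells (9.66% of all genes) and 1 was higher (8.76%). Of the 4, Ccl17 had 1 UMI (4.27 CPM) in Foxp3-positive T cells and Ccl22 had 2. Ccl17 passed the filter only through the Foxp3-negative cells, so its call is no result. Ccl1, a ligand of Ccr8, had 13 UMIs against 1945, a ratio of 0.104 (counting interval 0.0551 to 0.178), but 6 Foxp3-negative cells held at least 50% of its UMIs and it was found in 3 of 39 against 87 of 811 cells. Ccr4, a receptor for Ccl17 and Ccl22, had 7 UMIs against 32, a ratio of 3.39 (1.26 to 7.82). Il33, the ligand of the Il1rl1 receptor, had 0 UMIs in both classes.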

How the data were processed

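CD45+ cells of 12 MC38 tumors were profiled by 10x 3′ scRNA-Seq. The authors deposited 1 matrix of raw UMI counts per gene and cell barcode. The processing notes name Cell Ranger 2.1.1, Seurat and mm10, and the matrix header gives software version 3.0.2. A cell was kept if its gene number lay between 200 and 5000 and mitochondrial transcripts gave no more than 10% of its UMIs. No doublet caller was run. Barcode suffixes give 12 libraries that the labels do not tie to mice or groups, so the matrix was handled as 1 pooled sample, with no test between groups.

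The members, gene lists and gates were chosen with earlier results of these data known. Counts were expressed as CPM of the UMIs of a class. Ratios were planned as means over libraries with at least 20 cells of both classes. No library had 20 Foxp3-positive T cells, so their ratios used UMIs summed over libraries. Genes needed a mean of 5 CPM, and a class at 0 was set to a floor of 3 UMIs. Shares have exact Clopper-Pearson and sums exact Poisson 95% intervals. Shares were compared after thinning to 1000 UMIs per cell. The genes named were the 9 members, at most 6 examples from each list, the 10 genes with the largest Foxp3-positive ratios at a mean of 20 CPM (the condition of being higher in every library could not be applied) and genes of like level. The ratio code was tested on simulated data. Scripts ran in Python 3.11.15 with numpy 2.4.6, scipy 1.17.1, pandas 2.3.3 and matplotlib 3.10.9.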

Additional observations from a re-analysis of the deposited data

How the results depend on the processing

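The number of members at least 2-fold higher in Foxp3-positive than in Foxp3-negative CD4 T cells, 6, ran from 1 to 6 with each library left out in turn (1 without library 8), and was 1 in libraries 1 to 6 and 3 without cells above 2 times the median UMI count of class and library. Over the libraries left out in turn, Foxp3-positive T cells numbered 24 to 39, their share of CD4 T cells was 3.91 to 4.86%, and the genes at least 2-fold higher numbered 793 to 1648, against 792. Libraries 1 to 6 held 18 Foxp3-positive T cells, with 2330 genes higher and 5 members higher than in NK cells. Libraries 7 to 12 held 21 such cells. Requiring 2 Foxp3 UMIs left 6 cells, a share of 0.734% and 3175 genes higher. Requiring a Cd4 UMI left 17 cells, a share of 2.05% and 1255 genes. Counting libraries with at least 10 cells of both classes left library 8 and gave 1444 genes, a mean of at least 20 CPM gave 265, and no CPM filter gave 5420. Summing UMIs over all libraries gave 7 members higher in CD4 T cells with Ikzf2, against 4. With few Foxp3-positive T cells, the numbers of genes higher may include genes without a UMI in them, raised by the floor of 3 UMIs. How many did was not counted, and the cause of the shifts above was not tested. Among the member ratios to Foxp3-negative CD4 T cells, that of Gata3 (0.966) crossed 1: it was 2.03 with 2 Foxp3 UMIs, 1.29 with a Cd4 UMI, 1.45 in libraries 7 to 12, 1.304 with at least 10 cells of both classes, 1.17 at 5% mitochondrial UMIs and 0.750 to 1.15 with each library left out. In the draw of 500 UMIs per cell the interval that cleared was that of Izumo1r, not Ikzf2. With at least 50 cells of both classes, no Foxp3-positive ratio could be had. The splits by libraries 1 to 6 and 7 to 12, by Cd4, by Ikzf2 and Izumo1r, the weighting by library and the limit of 10 UMIs per cell were chosen after seeing the data. No paired analysis was possible because the columns carry no replicate numbers and no result comes from a test between groups. The 39 cells and 47 Foxp3 UMIs set the precision.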

Other observations

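Across 38 points, each a cell class in a library, the gene whose level was most like that of Izumo1r was Nrip1 (Pearson r = 0.965), and that most like Ikzf2 was Tnfrsf18, the GITR gene (r = 0.983). For Penk it was Tnfrsf4, the OX40 gene (r = 0.932), with Ikzf4 at r = 0.927. None of these points was from Foxp3-positive T cells, since no library held enough of them to give a point. The values of r were taken across other cell classes, so differences between classes enter them. They do not show which genes go together within Foxp3-positive T cells. The points also share libraries and depth, so the values of r are descriptions. The 10 genes with the largest ratios of Foxp3-positive over Foxp3-negative CD4 T cells were G0s2, Hdc, Cxcl2, Gadd45a, Ndc80, Clec4e, Il1rl1, Ncmap, Jcad and Il15ra. A single cell held 98.0% of the 50 G0s2 UMIs, 84.6% of the 26 Hdc UMIs, 76.8% of the 311 Cxcl2 UMIs and 82.4% of the 17 Clec4e UMIs.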
